A study of Mus musculus with 24 samples.

Results

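The lungs of dnCREB mice and of wild-type (WT) mice were compared after both had been given particulate matter (PM). The comparison rests on 6 arrays, 3 labelled dnCREB PM and 3 labelled WT PM, out of 24 arrays of lung and left ventricle. Its members are the genes measured in lung: for each gene symbol the probe set with the highest mean over the 24 arrays was kept, and a gene counted as measured when its log2 value exceeded 4 in at least 3 of the 12 lung arrays. Of 18193 genes on the array, 11600 met this rule, and 352 of them, on the X and Y chromosomes, were left out, which leaves 11248 genes.

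All mice were of the CD-1 strain and 20 weeks old. The transgene of the dnCREB mice encodes dominant negative CREB1 under the myosin heavy chain-alpha promoter that is active in heart muscle cells, and these mice are studied as a model of cardiac failure. The PM groups received 20 mg/kg of particles of 1.9 µm, with tissue taken at 36 h, and the PBS groups received phosphate-buffered saline. The series text speaks of 3 animals in a group, and the labels do not say which array came from which animal, so the p-values measure the spread between these samples.

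CREB1 is a transcription factor that is switched on by phosphorylation, downstream of cyclic AMP and calcium signals, and binds the cyclic AMP response element (CRE) in promoters. A dominant negative form occupies these sites, or pairs with the normal protein, without activating transcription. Inhaled or instilled particles are taken up by alveolar macrophages, and the lung answers with cytokines and chemokines that draw neutrophils and monocytes from the blood. The promoter of the transgene belongs to heart muscle, but these data hold no measure of heart function. What lies behind a difference in the lung of these mice was not tested.

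Markers of the labelled tissue were high: Sftpc, a surfactant protein of alveolar type II cells, lay between 15.09 and 15.26 in the 6 PM arrays, and Scgb1a1, the main secretory protein of airway club cells, between 15.53 and 15.72. Myh6, whose promoter drives the transgene, was also present in the PM lungs, at 11.51 to 11.93. The genotype label could not be checked in lung. The Creb1 probe set with the largest genotype difference in the left ventricle (2.65 in WT PM and 10.39 in dnCREB PM) stood in lung at 3.73 ± 0.50 (SD, n = 3) in WT PM and 3.62 ± 0.32 in dnCREB PM. The probe set kept for Creb1 read 10.97, 9.87 and 10.81 in the WT PM lungs and 10.87, 10.96 and 10.91 in the dnCREB PM lungs, so the groups overlapped (difference 0.36, 95% interval -0.18 to 0.90). That difference rests on WT PM replicate 2, and it was 0.02 without this array.

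Some of the 6 arrays stood apart. The mean log2 level of 20 fast skeletal muscle genes was 8.23 to 8.75 in WT PM replicates 1 and 2 and dnCREB PM replicate 3, and 3.79 to 4.82 in the other three. WT PM replicate 2 had the lowest median correlation with the other lung arrays of these 6 (r = 0.929, against 0.961 to 0.969), and it alone had high Eif2s3y (8.43) and low Xist (2.89), while Xist was 11.72 to 12.52 in the other five. Xist is expressed from the inactive X of female cells and Eif2s3y lies on the Y chromosome, whereas the labels give all animals as male, so the other five went against that label. The differences of the 24 genes named below, and list medians beyond 0.25 in size, were recomputed without WT PM replicate 2 and within each muscle class, and are given where they moved by more than 1.5 times. The classes set WT PM replicates 1 and 2 against dnCREB PM replicate 3 (muscle-high arrays), and WT PM replicate 3 against dnCREB PM replicates 1 and 2 (muscle-low arrays).

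Under PM, no gene separated the genotypes in lung after adjustment. With limma and Benjamini-Hochberg adjustment, 0 of 11248 genes passed an adjusted p of 0.05 (0%), and the smallest adjusted p was 0.901. An unadjusted p under 0.05 was reached by 440 genes, of which 145 were higher in dnCREB (1.29% of the genes tested) and 295 lower (2.62%). In 320 genes all 3 dnCREB arrays lay above the 3 WT arrays (2.84%), and in 616 genes they all lay below (5.48%). A log2 difference of at least 1 in size was seen in 199 genes, 174 of them lower and 25 higher in dnCREB, and the arrays did not overlap in 60 of the lower and 7 of the higher ones.

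Lower values in dnCREB were thus the more common direction in these 6 arrays, while the median over all genes was only -0.05. That median depended on the arrays: it was -0.13 in the muscle-high arrays, 0.00 in the muscle-low arrays and -0.02 without WT PM replicate 2. For 8599 genes (76.4%) the 95% interval of the difference lay within 1 log2 unit of 0.

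**Figure D1:**
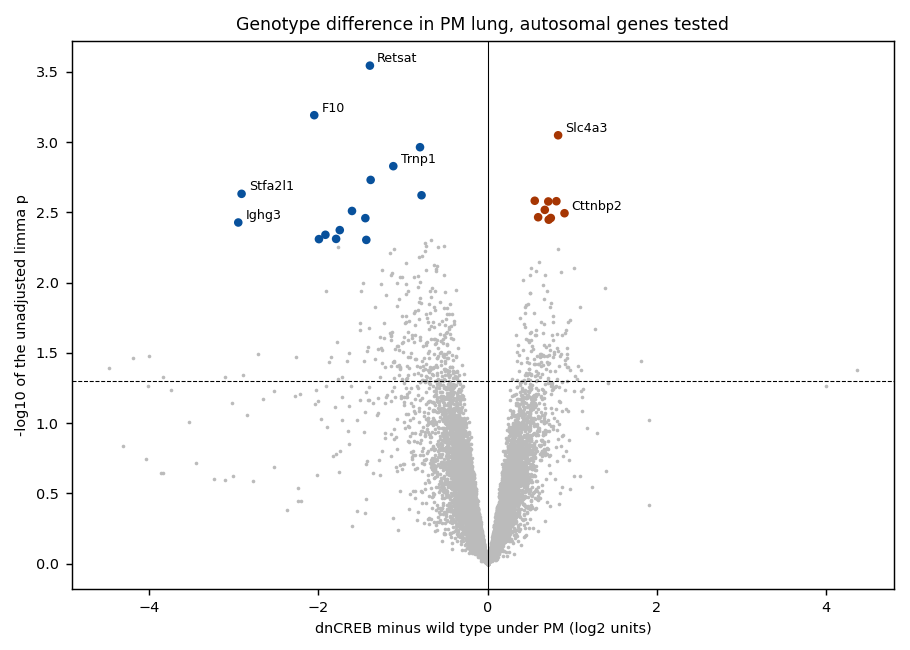
Each grey point is 1 of the 11248 genes, with the dnCREB minus WT difference under PM in log2 units on the x axis and -log10 of the unadjusted limma p on the y axis. The dashed line marks an unadjusted p of 0.05, and the 24 genes with the smallest p are coloured blue (15 lower in dnCREB) or brown (9 higher). The points past a difference of 1 lie mostly on the left, 174 against 25.

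The 24 genes with the smallest p, are given as values because none passed the test. All 24 had an adjusted p of 0.901, and in all 24 the dnCREB and WT arrays did not overlap, as their choice by p favours. Of these, 15 were lower in dnCREB, by 0.78 to 2.95 log2 units, and 9 were higher, by 0.56 to 0.91.

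Some of the lower genes are known from white blood cells or from airway secretions. Fcgr1, the high-affinity IgG receptor of monocytes and macrophages, read 7.97, 9.43 and 7.51 in the WT PM lungs and 5.80, 6.77 and 7.10 in the dnCREB PM lungs. Each WT array was thus above each dnCREB array, and the difference of -1.75 ± 0.49 (SE) corresponded to 3.36-fold. Stfa2l1, a stefin-type cysteine protease inhibitor found in neutrophils, read 9.98, 11.73 and 8.37 against 6.55, 6.85 and 7.95. Its difference of -2.91 ± 0.74 (SE), or 7.51-fold, was among the widest of the 24, but the lowest WT array and the highest dnCREB array lay close together.

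Slpi, the secretory leukocyte protease inhibitor that shields airway surfaces from neutrophil elastase, stood at 11.07, 12.24 and 10.63 in WT and 9.06, 9.77 and 9.73 in dnCREB. Wfdc21, a small secreted protein of the same whey acidic protein family, stood at 8.15, 10.40 and 8.27 against 7.09, 7.26 and 6.71. For both, WT PM replicate 2 was the highest array. Without it, the difference went from -1.79 to -1.33 for Slpi, from -1.92 to -1.19 for Wfdc21, from -1.75 to -1.18 for Fcgr1 and from -2.91 to -2.06 for Stfa2l1. In the muscle-low arrays it was -1.09 for Wfdc21 and -1.67 for Stfa2l1.

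F10, which encodes coagulation factor X, had values of 5.84, 7.63 and 6.47 in the WT PM lungs and 4.36, 4.80 and 4.64 in the dnCREB PM lungs. The groups were apart by more than 1 log2 unit at their nearest arrays. The difference was -2.05 ± 0.44 (SE), or 4.14-fold, and was alike in the muscle-high arrays (-2.10) and the muscle-low arrays (-1.89). Hcar2, a receptor for niacin and ketone bodies on myeloid cells and adipocytes, read 4.37, 5.43 and 4.11 against 3.37, 3.65 and 2.73, and its difference was -2.17 in the muscle-high and -0.60 in the muscle-low arrays.

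Ighg3, an immunoglobulin heavy chain constant region, was the gene with the largest difference among the 24. It read 8.63, 10.81 and 8.58 in the WT PM lungs and 6.06, 7.21 and 5.91 in the dnCREB PM lungs, which is -2.95 ± 0.81 (SE) or 7.72-fold, and it was -1.95 in the muscle-low arrays. Immunoglobulin genes are close copies of each other, so its probe set may also read its relatives. H2-T24, a non-classical class I histocompatibility gene with many relatives, read 8.02, 7.55 and 7.83 against 6.09, 5.23 and 6.10. The spread within each PM group was small beside the gap, at -1.99 ± 0.57 (SE), and without WT PM replicate 2 the difference was -2.12. The WT PBS arrays were spread more widely, at 6.07, 8.85 and 6.52.

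Klra17, a lectin-like receptor of the Ly49 family, differed by -1.60 under PM, with 7.56, 8.69 and 7.36 in WT and 6.43, 6.09 and 6.28 in dnCREB. It was the gene of the 24 with the largest difference between the genotypes under PBS as well: 7.61 ± 0.48 (SD, n = 3) in WT PBS and 5.52 ± 0.79 in dnCREB PBS lungs. Calhm6, a channel protein induced in activated macrophages, read 5.66, 7.52 and 6.01 in WT PM and 4.79, 4.95 and 5.13 in dnCREB PM lungs, a difference of -1.45 that became -0.88 without WT PM replicate 2.

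Retsat had the smallest p of all genes (an unadjusted limma p of 2.9e-04). It encodes retinol saturase, an enzyme of vitamin A metabolism. The WT PM lungs read 7.78, 7.79 and 7.95 and the dnCREB PM lungs 6.52, 6.47 and 6.35, so the arrays within a group were nearly alike and the groups lay far apart. The difference was -1.39 ± 0.27 (SE), or 2.62-fold, and it was -1.43 in the muscle-high and -1.45 in the muscle-low arrays. Under PBS the genotypes stood at 6.99 ± 0.40 (SD, n = 3) in WT and 6.78 ± 0.55 in dnCREB.

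Trnp1, a nuclear protein known from neural progenitors, showed a like pattern, with 5.67, 5.72 and 5.97 against 4.69, 4.75 and 4.57. Rnf180, a ubiquitin ligase, read 4.80, 5.26 and 5.15 against 4.34, 4.33 and 4.21. Prune2 read 4.02, 4.33 and 4.20 against 3.31, 3.51 and 3.32, values that lie around the level of 4 used as the filter. For these 3 genes the differences of -1.12, -0.78 and -0.80 moved by at most 0.13 without WT PM replicate 2 or within either muscle class.

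Olfm2, an olfactomedin-domain secreted glycoprotein, read 5.36, 5.74 and 5.20 in the WT PM lungs and 4.73, 4.20 and 3.08 in the dnCREB PM lungs. The PBS lungs of both genotypes were lower, at 2.42 ± 0.64 (SD, n = 3) in WT and 2.85 ± 0.29 in dnCREB. The difference under PM was -1.43, and it was -2.47 in the muscle-high and -0.74 in the muscle-low arrays.

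Since CREB1 acts through the CRE, the promoters of these genes were searched for it. RefSeq promoters of build GRCm38.p6, running from 250 bases before to 50 bases after the start site, were at hand for 19 of the 24 genes and for 9087 of the 11248. The full CRE, TGACGTCA, which reads the same on both strands, was in 1 of the 19 (5.26%) and in 318 of the 9087 (3.5%). The shorter core, TGACG or its other-strand form CGTCA, both of which lie inside the full CRE, was in 7 of the 19 (36.8%) and in 34.7% of the 9087. The shares in the 24 genes were thus near those in all genes. The stretch of 100 bases that ends 10 bases short of the start site is shown for Olfm2, the gene with the full CRE (chr9:20727014-20727113, minus strand), and for Kank3, a gene higher in dnCREB with the shorter core (chr17:33810413-33810512, plus strand). They are written 5′ to 3′ with the match in capitals.
Olfm2: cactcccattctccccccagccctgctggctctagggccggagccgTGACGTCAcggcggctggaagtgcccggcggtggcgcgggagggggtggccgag
Kank3: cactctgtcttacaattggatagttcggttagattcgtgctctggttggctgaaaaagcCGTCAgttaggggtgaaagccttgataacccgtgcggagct
Relative to the start site, the matches begin at position -64 in Olfm2 and -51 in Kank3. A match describes the letters of the window and does not show that CREB1 is bound there.

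The 9 higher genes differed by less than 1 log2 unit. Kank3, an ankyrin-repeat protein of endothelial cells, read 9.08, 8.24 and 9.01 in the WT PM lungs and 9.65, 9.67 and 9.45 in the dnCREB PM lungs, a difference of 0.81 ± 0.21 (SE). WT PM was the lowest of the 4 lung groups for this gene, since the PBS lungs stood at 10.29 ± 0.09 (SD, n = 3) in WT and 9.65 ± 0.14 in dnCREB. Slc4a3, an anion exchanger, read 5.19, 5.21 and 5.51 against 6.13, 6.20 and 6.08, with nearly equal arrays within each genotype (0.83 ± 0.19, SE).

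Purg, a purine-rich element binding protein, read 7.92, 7.55 and 7.88 against 8.31, 8.45 and 8.27. Rsrp1, an arginine- and serine-rich protein, read 12.18, 11.80 and 12.26 against 12.54, 12.68 and 12.81. Sned1, an extracellular matrix protein, read 6.45, 6.17 and 6.86 against 7.17, 7.08 and 7.26. In all 3 the lowest array was WT PM replicate 2, and without it the differences of 0.56, 0.60 and 0.68 became 0.44, 0.46 and 0.51. In the muscle-low arrays they were 0.50, 0.35 and 0.27.

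The remaining higher genes include 3 of the centrosome and cilium. Plk4, the kinase that starts centriole duplication, read 6.10, 6.37 and 6.20 in WT and 6.85, 6.79 and 7.18 in dnCREB. Intu, needed to build cilia, read 4.73, 5.31 and 4.92 against 5.83, 5.40 and 5.96, and Cep95, a centrosomal protein, 5.09, 4.82 and 5.48 against 5.74, 5.93 and 5.88. The difference of Cep95, 0.72, was 0.36 in the muscle-low arrays. This grouping was noticed after the values were seen, and 18 tested genes of ciliated airway cells had a median of 0.04. Cttnbp2, a cortactin-binding protein, read 4.96, 5.85 and 5.31 against 6.58, 6.24 and 6.03 and had the largest of these differences, 0.91.

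**Figure D2:**
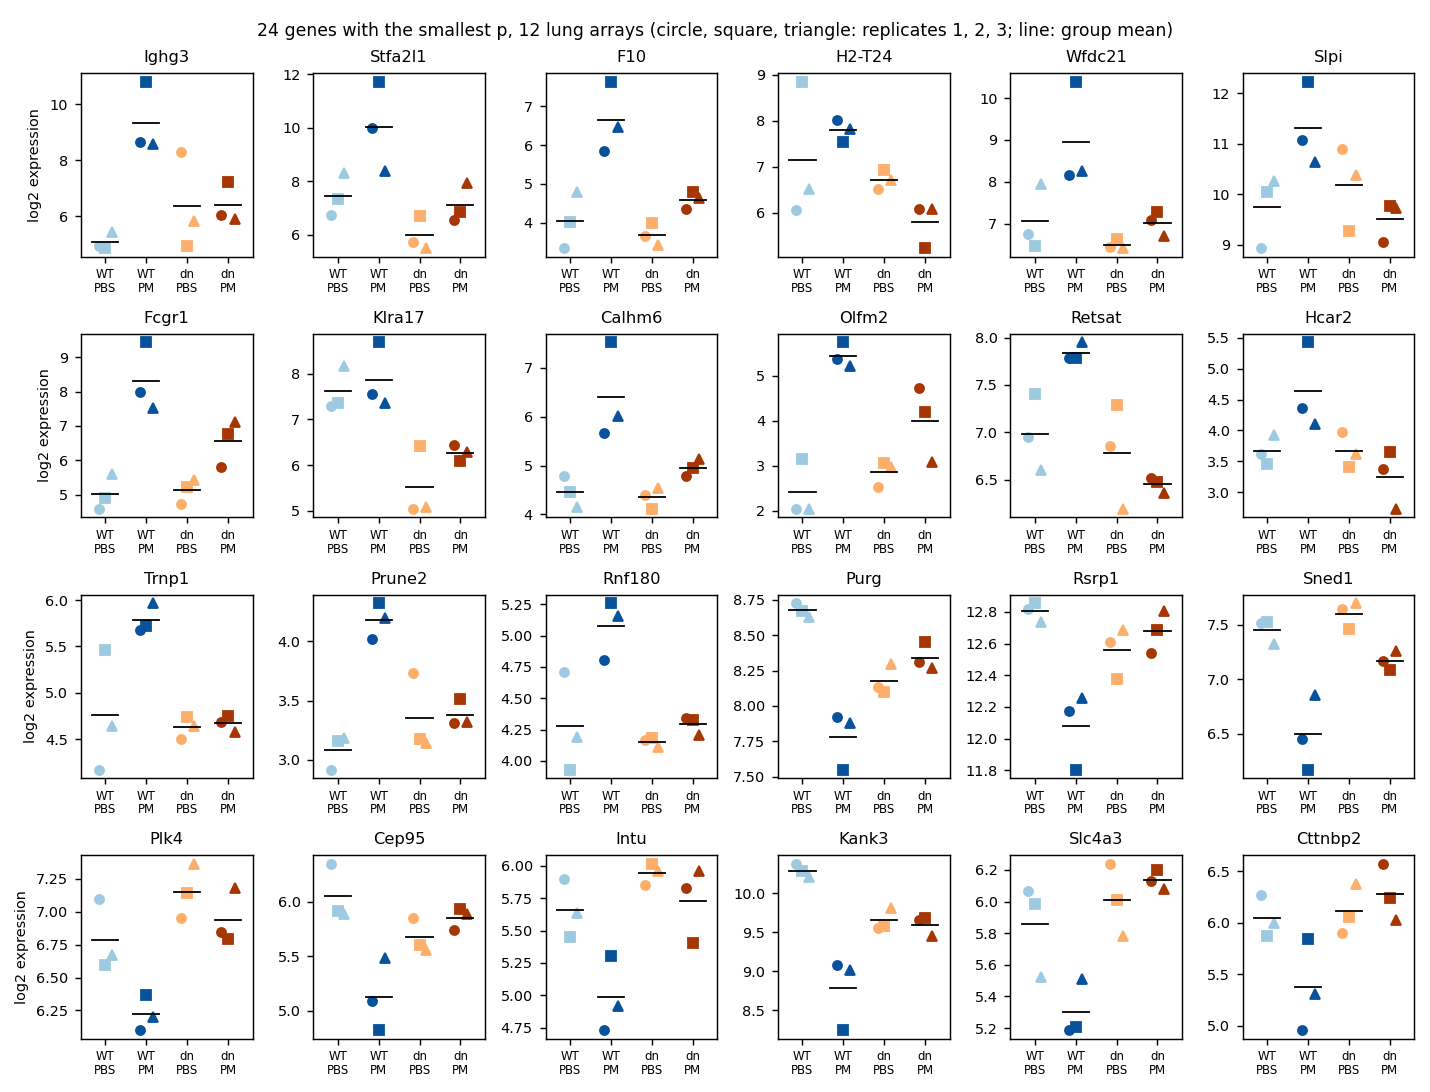
Log2 expression of the 24 genes in all 12 lung arrays, 1 panel per gene with its own y axis, ordered from the lowest to the highest difference under PM. Symbols are replicates, horizontal lines are means of 3 arrays, and dn stands for dnCREB. In each panel the 3 dark blue WT PM arrays and the 3 dark brown dnCREB PM arrays do not overlap. WT PM replicate 2 (square) is the highest WT PM array in 12 of the 15 genes lower in dnCREB.

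In 50 lists of cell type markers and pathways, no member passed the test. The list medians ran from -3.01 to 0.17, 42 lay below 0 and 8 above, and 34 lay within 0.25 log2 units of 0. Over all 11248 genes, 6591 were lower (58.6%), against which the counts of lower members are to be read. Of the 34 lists near 0, 6 had the other sign without WT PM replicate 2, 7 in the muscle-high arrays and 15 in the muscle-low arrays. In the same order, 32, 20 and 28 of them stayed within 0.25 of 0. The sign of a small median thus often depended on the arrays, and by itself gives no direction. In bulk tissue a lower value cannot tell fewer cells of a type from less RNA per cell. White blood cell markers are described first.

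Of 18 tested markers of monocytes and interstitial macrophages, all 18 were lower in dnCREB, with a median of -0.67. In 5 the arrays did not overlap (27.8%, against 5.48% of all genes). Adgre1, the F4/80 antigen, read 8.36, 9.33 and 8.34 in WT and 7.75, 7.75 and 8.13 in dnCREB. Ctss, the lysosomal protease cathepsin S, read 12.24, 12.89 and 12.85 against 11.86, 11.88 and 11.65. Cd14, the co-receptor for bacterial lipopolysaccharide, overlapped between the groups, with dnCREB PM replicate 3 at 9.58 against 9.39 in the lowest WT array. The list median was -0.47 without WT PM replicate 2, -0.49 in the muscle-high arrays and -0.43 in the muscle-low arrays.

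Of 13 tested neutrophil markers, 12 were lower in dnCREB, with a median of -1.11. In 5 the arrays did not overlap (38.5%, against 5.48% of all genes). Cxcr2, the receptor through which neutrophils follow CXC chemokines, read 6.03, 7.65 and 6.51 in WT and 5.21, 5.19 and 6.03 in dnCREB, where the highest dnCREB array met the lowest WT array to 2 decimals. Clec4d, a C-type lectin receptor, read 8.66, 9.36 and 8.23 against 7.02, 7.15 and 7.85. S100a9, a subunit of calprotectin and one of the most abundant neutrophil transcripts, read 13.17, 14.26 and 12.69 against 11.59, 12.10 and 12.70, so dnCREB PM replicate 3 met the lowest WT array. Il1r2, the decoy receptor for interleukin 1, was high in WT PM replicates 1 and 2 (5.25 and 6.27) and at 2.80 in replicate 3, against 2.50, 2.49 and 3.78 in dnCREB. The list median was -0.69 without WT PM replicate 2, -1.11 in the muscle-high arrays and -0.53 in the muscle-low arrays, and -0.61 between the genotypes under PBS.

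Of 14 tested alveolar macrophage markers, all 14 were lower in dnCREB, with a median of -0.75, but the arrays overlapped in each of them. Il18, an interleukin of the inflammasome pathway, read 8.98, 10.14 and 9.44 against 8.65, 8.99 and 7.86. Mrc1, the mannose receptor, read 10.25, 10.44 and 10.49 against 9.56, 10.30 and 9.70. Atp6v0d2, a proton pump subunit, stood lowest in dnCREB PM replicate 3 (6.02), and Marco, a scavenger receptor for particles, stood highest of the dnCREB arrays there (6.24, against 4.42 and 3.84). The markers of this list did not order the dnCREB arrays alike. The list median was -0.51 without WT PM replicate 2, -0.93 in the muscle-high arrays and -0.68 in the muscle-low arrays.

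Lymphocyte lists lay near 0, with a median of 0.05 over 16 markers of T and natural killer cells and -0.22 over 12 of B and plasma cells. Both medians had opposite signs in the muscle-high and muscle-low arrays, at -0.23 and 0.34 for the first list and -0.43 and 0.10 for the second. The 7 tested dendritic cell markers had a median of -0.22. The 5 tested platelet markers were all lower, with a median of -0.57. For the platelet integrin Itga2b, WT PM replicates 1 and 2 stood at 6.41 and 6.42 and WT PM replicate 3 at 4.97, beside 5.0, 4.99 and 5.34 in dnCREB, and the list's median was 0.03 in the muscle-low arrays and -0.33 without WT PM replicate 2.

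**Figure D3:**
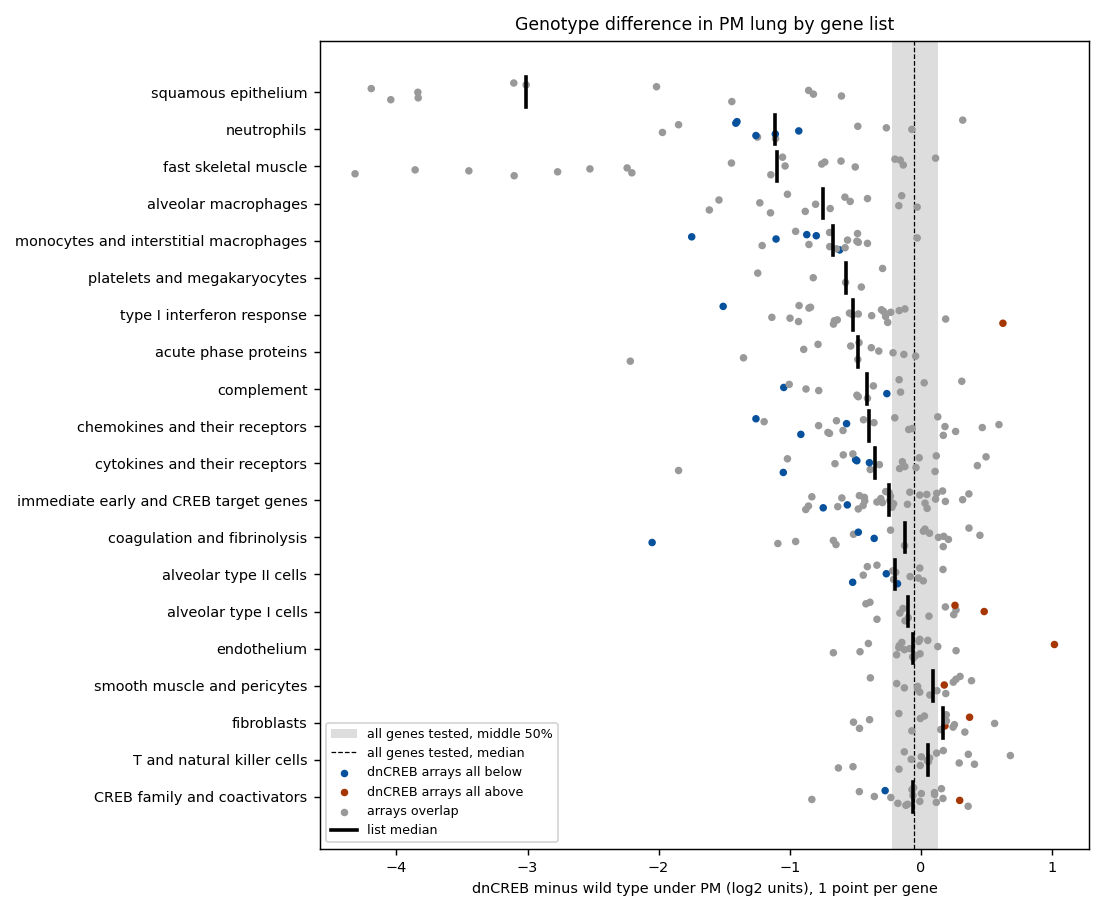
Genotype difference under PM for the members of 20 lists, 1 point per tested gene, in log2 units on the x axis. Black bars are list medians, the grey band holds the middle 50% of all 11248 genes, and blue or brown points are genes whose 3 dnCREB arrays all lie below or above the 3 WT arrays. The medians of neutrophils (-1.11), alveolar macrophages (-0.75) and monocytes (-0.67) lie left of the band, while those of endothelium (-0.06) and smooth muscle (0.10) lie within it.

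Among secreted mediators, 20 tested chemokines and chemokine receptors had a median of -0.40 and 20 cytokines and cytokine receptors a median of -0.35. The arrays did not overlap, with dnCREB lower, in 3 of the chemokine list (15.0%) and 4 of the cytokine list (20.0%), against 5.48% of all genes. Ccl6, a chemokine of macrophages, read 12.20, 13.05 and 12.58 in WT and 11.40, 11.87 and 11.80 in dnCREB. Cxcl16, a membrane-bound chemokine, read 9.22, 9.92 and 9.36 against 8.62, 9.04 and 9.14. The nearest arrays of each lay close, but none crossed.

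Ccr1, a receptor for inflammatory chemokines on myeloid cells, overlapped at 1 array, with 8.17, 8.60 and 7.45 in WT and 6.06, 6.95 and 7.62 in dnCREB. Il1b, which encodes interleukin 1 beta, read 9.0, 9.61 and 9.19 against 8.16, 8.07 and 8.43, a difference of -1.05 with a 95% interval of -2.07 to -0.03. Cish, a feedback inhibitor of cytokine receptors, read 8.06, 8.53 and 7.83 against 7.90, 7.49 and 7.47. Chemokine medians were -0.18 in the muscle-high arrays and -0.46 in the muscle-low arrays, and cytokine medians -0.30 and -0.28. Without WT PM replicate 2 the chemokine median was -0.43 and the cytokine median -0.15.

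All 12 tested acute phase proteins were lower in dnCREB, with a median of -0.48, and for none were the arrays apart. dnCREB PM replicate 3 stood with the WT arrays. Saa3, the inducible serum amyloid A of lung and macrophages, read 12.53, 12.35 and 11.19 in WT PM and 7.86, 8.58 and 12.99 in dnCREB PM, where the last is the highest of the 6. Serpina3n, a protease inhibitor, read 10.80, 11.04 and 9.60 against 8.53, 9.41 and 10.82. The list median was 0.03 in the muscle-high arrays, which hold that replicate, and -1.0 in the muscle-low arrays.

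Of 13 tested complement genes, 11 were lower, with a median of -0.41 and 2 without overlap (15.4%, against 5.48% of all genes). The median was -0.22 without WT PM replicate 2, -0.09 in the muscle-high arrays and -0.30 in the muscle-low arrays. C5ar1, the receptor for the chemoattractant C5a, read 6.38, 7.70 and 7.46 against 6.06, 6.30 and 6.04. Cfb, the factor B of the alternative pathway, read 9.36, 10.03 and 9.06 against 8.25, 7.98 and 9.20, and so overlapped at dnCREB PM replicate 3.

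The 19 tested coagulation and fibrinolysis genes had a median of -0.12, and F10 had the largest difference among them. F13a1, a clot-stabilising transglutaminase subunit made by macrophages, differed by -0.96 and Procr, the endothelial protein C receptor, by -0.36. Procr read 9.83, 10.11 and 9.95 in WT and 9.49, 9.72 and 9.60 in dnCREB, without overlap. F7, coagulation factor VII, differed by -1.09 with WT PM replicate 1 (7.04) equal to dnCREB PM replicate 1 (7.04).

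Of 23 tested genes of the type I interferon response, 21 were lower, with a median of -0.52. The arrays did not overlap in 1 lower and 1 higher gene, shares of 4.35% each, against 5.48% and 2.84% of all genes. The lower gene was Slfn1, a growth-regulating Schlafen gene, at 7.80, 9.25 and 7.96 in WT and 6.31, 7.68 and 6.5 in dnCREB. The higher gene was Ifit2, an antiviral RNA-binding protein, at 8.01, 9.0 and 9.06 against 9.43, 9.28 and 9.23. Irf7, the transcription factor that amplifies interferon production, read 7.48, 8.56 and 8.0 against 6.17, 8.09 and 6.38, so dnCREB PM replicate 2 was among the WT values. The list median was -0.15 without WT PM replicate 2, -0.84 in the muscle-high arrays and -0.27 in the muscle-low arrays. The 26 tested genes of the interferon-gamma response had a median of -0.16.

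Squamous epithelium and fast skeletal muscle, tissues that are not part of the lung's gas exchange surface, were also measured. The 11 tested squamous epithelium genes had a median of -3.01 and the 20 fast skeletal muscle genes one of -1.10, and in both lists the arrays overlapped for every gene. Krt13, a keratin of squamous surfaces, read 10.89, 12.34 and 2.58 in WT PM and 2.62, 2.59 and 8.46 in dnCREB PM. Myh1, a fast skeletal myosin, read 12.17, 11.78 and 7.0 against 3.07, 2.98 and 11.96. High values thus fell in the same 3 arrays, WT PM replicates 1 and 2 and dnCREB PM replicate 3.

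Within muscle classes the squamous median was -1.86 in the muscle-high and 0.03 in the muscle-low arrays, and the skeletal muscle median 0.42 and -0.56. Without WT PM replicate 2 they were -1.49 and -0.59. Among the PBS lungs, dnCREB replicates 1 and 3 carried the same 2 signals. With muscle class as a block in the fit, the squamous median was -0.74 and the skeletal muscle median -0.07. Beyond the values within each class and the fits with muscle class or score, the part of this tissue in the other differences was not tested. The 19 tested cardiac and atrial genes had a median of -0.09. Nppa, the atrial natriuretic peptide, read 11.16, 11.13 and 11.58 in WT PM and 10.89, 11.75 and 11.01 in dnCREB PM lungs, and the groups overlapped.

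**Figure D4:**
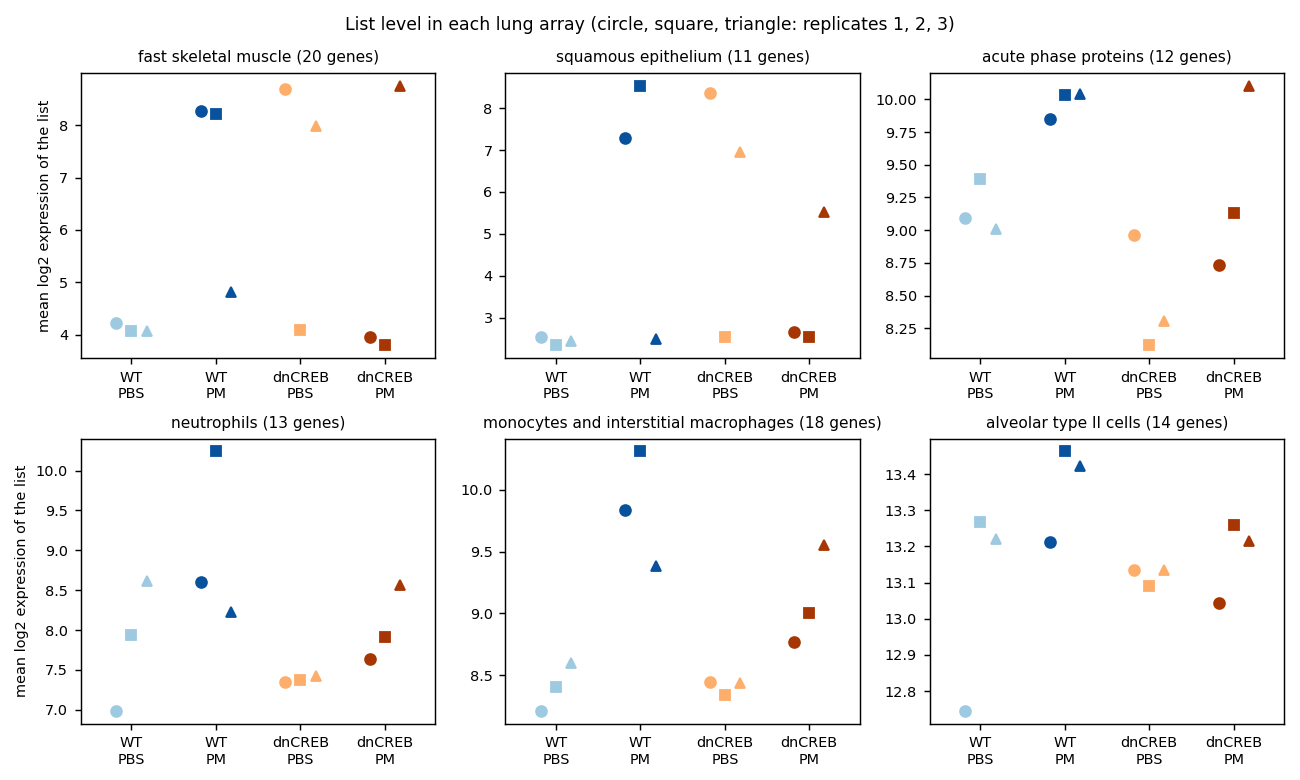
Mean log2 expression of 6 lists in each of the 12 lung arrays, with the 4 groups on the x axis and a separate y axis per panel. Symbols are replicates. Skeletal muscle and squamous genes are high in replicates 1 and 2 of WT PM, 1 and 3 of dnCREB PBS and 3 of dnCREB PM. The acute phase mean of dnCREB PM replicate 3 (10.10) lies above the WT PM arrays, and WT PM replicate 2 is highest for neutrophils (10.24) and monocytes (10.31).

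Lists of resident lung cells had medians nearer to 0. The 14 tested alveolar type II markers had a median of -0.20, with 3 lower without overlap (21.4%, against 5.48% of all genes). Sftpb, the surfactant protein needed for surface film formation, lay between 12.81 and 13.19 in WT and between 12.39 and 12.58 in dnCREB, without overlap, a difference of -0.52 with a 95% interval of -1.11 to 0.07. Lpcat1, which makes surfactant phosphatidylcholine, read 13.36, 13.62 and 13.22 against 13.18, 13.02 and 13.21. For Sftpc the interval was -0.28 to 0.31.

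The 13 alveolar type I markers had a median of -0.10, and Akap5, an anchor for protein kinase A, was the most separated of them, at 11.28, 10.69 and 11.65 in WT and 11.69, 11.69 and 11.68 in dnCREB. The 19 endothelial markers had a median of -0.06, but it was -0.50 in the muscle-high and 0.20 in the muscle-low arrays. Sox17, a transcription factor of arterial endothelium, read 9.87, 8.47 and 9.39 against 10.25, 9.92 and 10.62, without overlap, a difference of 1.02 ± 0.31 (SE). Vwf, von Willebrand factor, overlapped, with 13.42, 13.51 and 12.77 against 13.20, 12.36 and 12.13.

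Smooth muscle and pericyte markers (14 tested) had a median of 0.10 and fibroblast markers (16 tested) one of 0.17, the highest of all lists. In 2 of the fibroblast markers the dnCREB arrays were all above (12.5%, against 2.84% of all genes). One of them was Npnt, nephronectin, an integrin ligand of the alveolar wall, at 13.18, 13.27 and 13.61 against 13.74, 13.76 and 13.68. The 30 tested extracellular matrix genes had a median of 0.03, club and mucous cells 0.02 and ciliated cells 0.04.

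The 20 tested members of the CREB family and its coactivators had a median of -0.06, near the -0.05 of all genes. The arrays did not overlap in 1 lower gene (5%, against 5.48% of all genes) and 1 higher gene (5%, against 2.84%). The higher was Atf2, a factor that also binds the CRE, at 10.14, 9.47 and 10.08 in WT and 10.15, 10.16 and 10.28 in dnCREB. The lower was Sik2, a kinase that keeps CREB coactivators out of the nucleus, at 9.33, 9.20 and 9.22 against 9.13, 9.13 and 8.67.

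Of 33 tested immediate early and CREB target genes, 24 were lower (72.7%), with a median of -0.24, and 2 lower genes had no overlap (6.06%, near the 5.48% of all genes). Junb, a subunit of the AP-1 factor, read 8.08, 8.76 and 8.34 against 7.31, 7.60 and 8.05, a difference of -0.75 ± 0.21 (SE). Ier2, an immediate early nuclear protein, read 9.57, 10.22 and 10.03 against 9.51, 9.46 and 9.17. Egr2 and Atf3, transcription factors induced by growth and stress signals, overlapped at WT PM replicate 1: Egr2 read 4.54, 5.86 and 6.37 against 4.48, 4.92 and 4.79, and Atf3 5.69, 7.11 and 6.99 against 5.82, 5.71 and 5.77. The list median was -0.25 without WT PM replicate 2, -0.28 in the muscle-high arrays and -0.36 in the muscle-low arrays.

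The 23 tested genes of adrenergic and cyclic AMP signalling had a median of -0.02, and the 23 of renin-angiotensin, endothelin and natriuretic peptide signalling one of 0.00. Adcy3, an adenylyl cyclase, was lower without overlap (7.54, 8.22 and 7.72 against 7.51, 7.49 and 7.15), by -0.45. Gucy1b1, a subunit of the nitric oxide receptor, was higher without overlap (11.82, 10.91 and 11.70 against 11.94, 12.06 and 12.07), by 0.54.

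Edn1, the vasoconstrictor endothelin 1, and Ace, angiotensin converting enzyme, overlapped, at 10.45 ± 0.12 (SD, n = 3) in WT PM against 10.50 ± 0.52 in dnCREB PM for Edn1 and 11.15 ± 0.14 against 11.25 ± 0.69 for Ace. Bmpr2, the receptor mutated in heritable pulmonary hypertension, stood at 13.43 ± 0.57 against 13.66 ± 0.12. The 22 genes of alveolar ion and water transport had a median of -0.12, with 3 lower without overlap (13.6%, against 5.48% of all genes). These were Cldn3, a tight junction claudin (10.22, 10.70 and 10.20 against 10.05, 9.92 and 9.65), Fxyd5, a sodium pump regulator (10.12, 10.95 and 9.90 against 9.56, 9.69 and 9.60), and Scnn1g, the gamma subunit of the epithelial sodium channel (10.88, 10.83 and 11.03 against 10.78, 10.71 and 10.40).

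No gene of the responses to particle chemistry passed the test. The 15 tested genes of the aryl hydrocarbon receptor response had a median of -0.15, and Cyp1a1, its classical target, stood at 7.23 ± 0.40 (SD, n = 3) in WT PM and 7.22 ± 0.77 in dnCREB PM lungs, with a 95% interval of the difference from -1.17 to 1.15. The 28 genes of the NRF2 antioxidant and metal response had a median of -0.16, with 26 lower (92.9%). The median was -0.09 without WT PM replicate 2 and -0.06 in the muscle-low arrays. Osgin1, an oxidative stress-induced growth inhibitor, read 7.33, 8.19 and 7.30 against 6.72, 6.92 and 7.09, without overlap. The metallothionein Mt1 overlapped, at 11.14, 10.91 and 10.39 against 10.02, 10.17 and 10.79.

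In the glucocorticoid response list (22 tested, median -0.30), Fkbp5, a co-chaperone of the glucocorticoid receptor, read 10.89, 9.71 and 9.23 in WT and 8.60, 9.14 and 8.79 in dnCREB, without overlap. In the muscle-low arrays the list's median was -0.00. Glycolysis (18 tested) had a median of -0.30 (-0.17 without WT PM replicate 2, and -0.16 and -0.14 in the muscle-high and muscle-low arrays), the respiratory chain and TCA cycle (30 tested) one of -0.15, fatty acid uptake and oxidation (22 tested) one of -0.17, and lipid synthesis (23 tested) one of -0.11. The medians of the cell cycle (0.06), heat shock and unfolded protein response (-0.13), circadian clock (-0.12), hypoxia and angiogenesis (-0.03), metalloproteinases (-0.03) and TGF-beta, BMP and Wnt signalling (-0.09) lay close to that of all genes. Not all did so within muscle classes. In the muscle-high and muscle-low arrays, heat shock had -0.26 and -0.30, the clock -0.49 and 0.04, and TGF-beta -0.26 and -0.05. All genes had -0.13 and 0.00 there.

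The remaining lists were of other tissues. Mesothelium (10 tested) had a median of -0.41, which was -0.23 without WT PM replicate 2 and 0.05 in the muscle-low arrays, and adipocytes (11 tested) one of -0.19. Erythroid cells (3 tested), thymus and lymph node tissue (2), eosinophils, basophils and mast cells (2), cartilage (3) and nerve (3) had too few tested members to describe.

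The same genotypes were compared under PBS, to see which differences were there without particles. Several features of these arrays moved with genotype. All 3 WT PBS arrays had high Eif2s3y (9.24 to 10.19) and low Xist (2.15 to 2.72), while no dnCREB PBS array had Eif2s3y above 3.18, and Xist was high in dnCREB PBS replicate 2 alone (12.70). Skeletal muscle genes were high in dnCREB PBS replicates 1 and 3 and in no WT PBS array. WT PBS replicate 1 had the lowest median correlation of the 12 lung arrays (r = 0.924). The Eif2s3y pattern and genotype cannot be told apart under PBS, which also enters the interaction. Under PBS, 2 of 11248 genes passed the adjusted test (0.0178%), and 609 had an unadjusted p under 0.05. Angpt2, an angiopoietin that loosens endothelial contacts, rose in dnCREB from 5.98 ± 0.08 (SD, n = 3) to 7.20 ± 0.17 (limma, adjusted p = 0.0415). Its WT PBS arrays were 6.06, 5.99 and 5.90 and its dnCREB PBS arrays 7.28, 7.32 and 7.0, while under PM it stood at 7.44 in both genotypes. Tdgf1, a co-receptor of the Nodal pathway, fell from 4.91 ± 0.41 to 3.05 ± 0.13 under PBS (limma, adjusted p = 0.00564), and stood at 3.34 and 3.36 under PM, below the filter level of 4. Neither gene was called in every other setting: 0 genes passed without the muscle-high arrays, with muscle class as a block, or without dnCREB PBS replicate 3.

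The interaction asks whether the genotype difference under PM departed from that under PBS. With limma, 0 of 11248 genes passed (0%), 578 had an unadjusted p under 0.05 (5.14%), and the smallest adjusted p, of Tdgf1, was 0.136. For the 24 genes above, this difference of differences uses the same PM arrays that chose them, so its values only describe them. It was -4.23 for Ighg3, -2.23 for Slpi, -1.85 for Fcgr1 and -1.69 for F10. Ighg3 stood at 5.06 ± 0.31 (SD, n = 3) in WT PBS, 9.34 ± 1.27 in WT PM, 6.35 ± 1.75 in dnCREB PBS and 6.39 ± 0.71 in dnCREB PM lungs. Stfa2l1 had a difference of -1.48 under PBS as well, and Klra17 one of -2.09.

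Among the 33 immediate early and CREB target genes, the median was 0.17 under PBS and the median interaction -0.49, against -0.03 for all genes. In 8 of the 33 the unadjusted limma interaction p was under 0.05 (24.2%, against 5.14% of all genes), 6 lower and 2 higher. Each had a limma adjusted p of 0.831. Some other lists had larger shares: 6 of 16 T and natural killer cell markers, 7 of 20 fast skeletal muscle genes and 7 of 11 squamous epithelium genes. Their median interactions were -0.74, -3.48 and -6.12, so the departure was not particular to the CREB target list. Egr1, a growth-induced transcription factor, stood at 8.38 ± 0.29 (SD, n = 3) in WT PBS, 10.02 ± 1.03 in WT PM, 10.12 ± 0.20 in dnCREB PBS and 9.38 ± 0.69 in dnCREB PM lungs, an interaction of -2.37 ± 0.65 (SE). Fos, the partner of Jun in AP-1, stood at 10.09 ± 0.45, 10.76 ± 1.43, 11.18 ± 0.37 and 9.88 ± 0.54 in the same order. Both were thus lowest or second lowest in WT PBS and highest in dnCREB PBS.

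The other lower genes of these 6 were Egr3 (-1.14), Atf3 (-1.51), Ier2 (-0.89) and Ccn1 (-1.65), a matricellular protein. The 2 higher ones were Pde4b (1.28), a phosphodiesterase that breaks down cyclic AMP, and Crem (0.67), a member of the CREB family. Crem stood at 7.73 ± 0.41 in WT PBS and between 7.05 and 7.09 in the other groups. Without WT PBS replicate 1 the median interaction was -0.30 and 5 genes had an unadjusted p under 0.05. Without the muscle-high arrays the median interaction was -0.61. In a fit of all 24 arrays of both tissues it was -0.49, and 3 genes had an unadjusted limma p under 0.05, 2 of them lower.

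In the left ventricle, where the transgene is active, the genotype difference under PM had another size for many genes. Of 11939 autosomal genes in a fit of all 24 arrays, 966 passed the adjusted limma test of left ventricle minus lung (8.09%). Of these, 614 had the higher and 352 the lower difference in the left ventricle. An unadjusted limma p under 0.05 was reached by 2624 genes. The 966 include genes that lay under 4 in both left ventricle groups, where differences of dim genes are compressed. F10 was among them (2.53 in WT PM and 2.48 in dnCREB PM, limma adjusted p = 0.0114). So was Hcar2 (2.03 and 2.01, limma adjusted p = 0.0253). For such genes the test cannot tell a different genotype response from a gene too dim to be measured in the left ventricle. How many of the 966 are of this kind was not tested. Ltbp2, a protein of elastic microfibrils, stood at 1.82 ± 0.27 (SD, n = 3) in WT and 8.85 ± 0.47 in dnCREB left ventricle, and at 11.19 ± 0.15 and 10.80 ± 0.59 in lung. Ccn5, a matricellular protein, stood at 2.03 ± 0.37 and 9.37 ± 0.62 in left ventricle and at 9.56 ± 0.76 and 9.67 ± 0.16 in lung. Both were thus high in lung in either genotype.

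Slc38a1, a glutamine transporter, stood at 4.63 ± 0.03 and 8.96 ± 0.54 in left ventricle and at 8.71 ± 0.25 and 8.36 ± 0.43 in lung. Cep128, a centriolar protein, was lower in the dnCREB left ventricle, at 8.47 ± 0.24 and 4.22 ± 0.16, and stood at 5.55 ± 0.35 and 5.48 ± 0.26 in lung. Levels are set side by side only within a tissue, since the lung and heart values may have been normalized separately, which was not tested. Among the genes lower in PM lung of dnCREB, Fcgr1 (2.14 and 2.23), F10 (2.53 and 2.48) and Slpi (3.05 and 3.02) lay under 4 in both left ventricle groups.

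**Figure D5:**
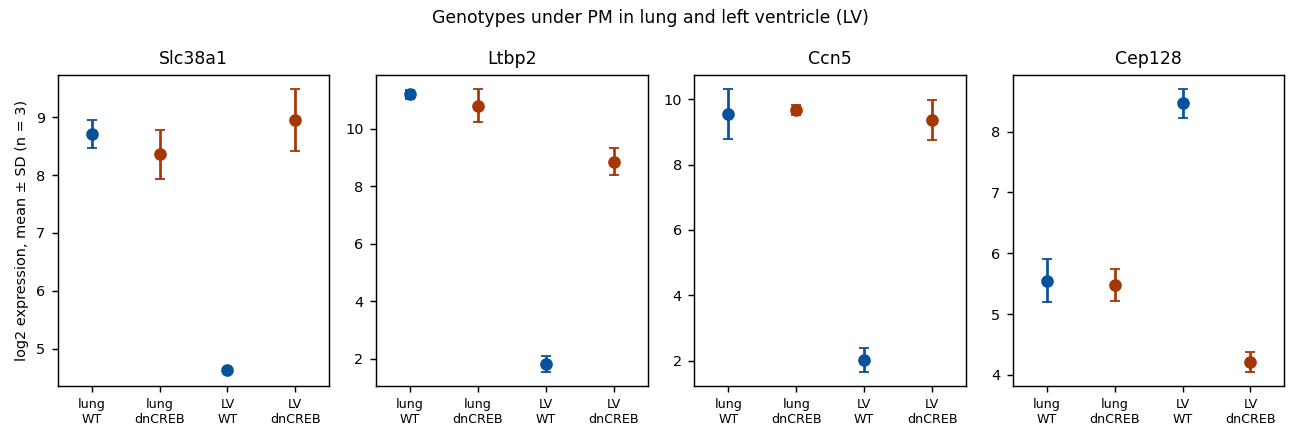
Mean log2 expression under PM, with SD over 3 arrays as error bars, for the 4 genes with the smallest p in the test of left ventricle (LV) minus lung. In the left ventricle Slc38a1, Ltbp2 and Ccn5 are high and Cep128 is low in dnCREB, while the lung means of the genotypes differ by 0.07 to 0.38.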

How the data were processed

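The deposited values are on a log2 scale, 1 per Affymetrix probe set, and the authors computed them with GCRMA per the submitters' processing notes, with no version given in the sources used here. GCRMA estimates background from the bases of each probe, puts the arrays on a common distribution and combines the probes of a set, and its floor compresses differences of dim genes. No further normalization was applied. Arrays give no counts, so the number of arrays limits the precision, and the 95% interval of a difference reached 0.52 log2 units to each side in the median gene.

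Of 45037 probe sets, 34945 had 1 gene symbol. The 932 with several and the 9160 with none were left out. The 12 lung arrays were fitted as 4 group means with limma 3.58.1 (R 4.3.3), with Benjamini-Hochberg adjustment over the 11600 genes tested. Genes on X and Y were in the fit and out of every count, and 23 counted genes had no chromosome. The left ventricle minus lung test used 8 group means over all 24 arrays. Fits were checked on simulated data. List levels are means over tested members. Tables and plots used Python 3.11.15, pandas 2.3.3 and matplotlib 3.10.9.

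The rule for naming genes took the largest changes among genes past the threshold, filled to 24 with the smallest p, up to 4 members of a list with the smallest p, the 4 smallest p of the tissue test, Creb1 and Myh6. Members beyond these, such as Sftpc, Scgb1a1, Nppa, Cyp1a1, Edn1, Ace, Bmpr2, Angpt2 and Tdgf1, were added for their roles or as the only genes called. The members, lists and rule were chosen with earlier results of these data known.

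Alternatives were all probe sets, no filter, a filter above 6, quantile normalization, median centring, a joint fit of 24 arrays, only the 6 PM arrays, array weights, a variance trend, a 1.5-fold minimum, a replicate block, a muscle score or Xist class as covariate, leaving out muscle-high arrays and leaving out each array.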

Additional observations from a re-analysis of the deposited data

Results flagged for a closer look

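The genotype difference under PM was not the same in left ventricle and lung for 966 genes, by the adjusted limma test of that difference itself. The 4 with the smallest p were Slc38a1 (left ventricle minus lung 4.67), Ltbp2 (7.41), Ccn5 (7.23) and Cep128 (-4.18). The 966 include genes, such as F10 and Hcar2, that lay under 4 in both left ventricle groups, where differences are compressed. The lung groups hold 3 arrays each, too few for a test of single outlying arrays.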

How the results depend on the processing

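No gene passed the adjusted test of dnCREB against WT under PM under any of the 26 other settings run. The difference of none of the 24 named genes turned sign. As the PM arrays of the genotypes did not overlap in any of the 24, leaving out arrays could not turn a sign. The genes at an unadjusted p under 0.05, 440 in all, were 122 without the muscle-high arrays, 223 with Xist class as a covariate, 753 over all probe sets and 813 in the joint fit. They were 173 without WT PM replicate 2, 276 without dnCREB PM replicate 2, 720 without WT PBS replicate 1, 867 without WT PM replicate 1 and 1091 without WT PM replicate 3. Leaving out muscle-high arrays also leaves fewer samples, and the cause of the other shifts was not tested. The 2 calls of dnCREB against WT under PBS became 4 over all probe sets, 0 with a filter above 6, 1 with quantile normalization, 1 with median centring, 55 in the joint fit, 165 with array weights, 1 with a variance trend, 0 with the muscle score as covariate, 1 with Xist class, 0 without the muscle-high arrays and 0 with muscle class as a block, which was added after seeing the data. Leaving out each array gave 0 to 6. The interaction had 14 calls in the joint fit and 0 to 1 when each array was left out, the 1 being Tdgf1 without WT PBS replicate 2. Left ventricle minus lung gave 675 to 1075 calls when each of the 6 lung PM arrays was left out. No left ventricle array was left out. Same-numbered PM arrays did not deviate together (r = -0.11, -0.21 and -0.33), while arrays with different numbers gave r from -0.29 to 0.48. Deviations from the mean of so few arrays are tied to each other. These values therefore cannot decide whether the numbers pair samples. A fit with the replicate block gave 0 calls and 429 genes at an unadjusted limma p under 0.05 under PM. It gave 2 calls under PBS, Tdgf1 and Cd28 but not Angpt2, 0 for the interaction and 890 for left ventricle minus lung. Dim genes near the GCRMA floor limit what can be seen: their differences are compressed.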
